A study of Mus musculus with 4 samples.

Results

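The genes described here are 10 secreted or membrane-bound ligands through which CD8+ T cells act on other cells: the cytokines Ifng, Tnf, Il2, Il10, Lta, Ltb and Tgfb1 and the ligands Fasl, Tnfsf10 (TRAIL) and Tnfsf8 (CD30 ligand). They were taken by symbol from the 27998 genes listed in the counts, where all 10 were found, and are called members. The libraries held CD8+ T cells that bound a GP33 tetramer, which recognizes T cells specific for a glycoprotein epitope of lymphocytic choriomeningitis virus (LCMV). They were isolated from spleen on day 8 after infection of 2 chimeric mice with LCMV Armstrong. Each was an irradiated Rag1-/- host given equal parts of WT (CD45.1) and Bcl3-/- (CD45.2) marrow on the C57bl/6 background, so that cells of both genotypes shared a host. Such hosts lack T and B cells of their own but keep other blood cells. Chimera 1 gave the libraries WT1 and KO1, and chimera 2 gave WT2 and KO2, so that n = 2 per genotype. Bcl3 is deleted in every cell of the Bcl3-/- marrow, not only in T cells.

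In an acute virus infection effector CD8+ T cells kill infected cells through granules and death ligands and release cytokines, and most of them die after the virus is cleared while a minority persist as memory cells. IFN-γ and TNF are released in bursts after contact with antigen and their mRNAs are short-lived, so a resting cell can hold few copies. Lymphotoxin β, encoded by Ltb, is made by resting lymphocytes, stays on the membrane and binds lymphotoxin α. Fas ligand and TRAIL bind receptors that start apoptosis, and TGF-β1 and IL-10 dampen immune responses. NF-κB factors are known to drive several of these genes, and Bcl-3, a relative of the IκB inhibitors, binds NF-κB dimers on DNA and can raise or lower their activity.

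Counts are UMIs (unique molecular identifiers, each standing for 1 captured mRNA molecule), and barcodes with 500 or more genes and no more than 10% of UMIs from mitochondrial genes were taken as cells. This gave 4941 cells in WT1 and 8092 in WT2 against 5366 in KO1 and 6494 in KO2, with medians of 3571, 2019, 3620.5 and 2948 UMIs per cell and totals of 21193300, 20358780, 22922219 and 22672343 UMIs per library. WT2 was thus the shallowest per cell. Between 37 and 63 cell barcodes were shared by any 2 libraries, where 36.0 to 71.3 would be expected by chance among the barcodes of the kit. Levels are in CPM, the usual scaling of a gene's summed UMIs by all UMIs of the cells they were summed over. Because the kit counts each molecule once at its 3′ end, CPM was not divided by gene length.

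T cell states were clusters found in each library without the 10 genes among the variable genes, and were named from marker lists. Terminal effector clusters (led by Gzma, S1pr5, Zeb2 and Klrg1) held 461 cells in WT1 and 850 in WT2 against 1161 in KO1 and 1035 in KO2. Naive and memory precursor clusters (led by Ccr7, Tcf7, Dapl1 and Id3) cannot be divided into naive cells and precursors with these markers, and in KO1 13.1% of their cells had a Cd4 UMI. Interferon-stimulated clusters were led by Ifit1, Ifit3 and Isg15, and cycling clusters by cell cycle genes. The remaining T cell clusters, 52.2% to 61.2% of a library's clustered cells, passed for no list and are called unnamed. They are a mixed group whose leading genes differed. One of 792 cells in KO1 was led by Tcf7 and Il7r, and one of 948 cells in WT1 by Klrg1, Camk2n1 and Prf1. The label of CD8+ T cells held for these clusters, where Cd8b1 lay between 1838 and 2193 CPM, but every library also held a B-like cluster of 1.5% to 2.53% and myeloid cells. The level of Bcl3 was 33.2 CPM in WT1 and 108 in WT2 against 27.6 in KO1 and 86.6 in KO2. These levels ran with the chimera more than with the genotype, and a 3′ count does not report on a deletion elsewhere in the gene, so the knockout label was not checked by it.

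Ltb was by far the most abundant of the 10 genes, followed by Tgfb1. Over the T cell clusters the mean of the 4 libraries was 867 ± 252 CPM (SD, n = 4) for Ltb and 124 ± 4.35 CPM for Tgfb1. Fasl reached 63.5 ± 10.4 CPM and Ifng 60.9 ± 7.28 CPM. The other genes were sparse. Il2 had 13.2 ± 6.29 CPM, Tnfsf10 8.38 ± 0.954 CPM and Tnfsf8 7.88 ± 1.17 CPM. Tnf had 4.04 ± 1.73 CPM, Lta 3.19 ± 1.09 CPM and Il10 0.286 ± 0.327 CPM. In UMIs over all cells of the 4 libraries the range ran from 68226 for Ltb through 4687 for Ifng and 364 for Tnf to 38 for Il10. The 4 libraries overlapped between neighbours in this order from Fasl to Ifng, from Il2 to Tnfsf8 and from Tnf to Lta, whereas Ltb lay above Tgfb1, and Tgfb1 above Fasl, in every library.

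**Figure D1:**
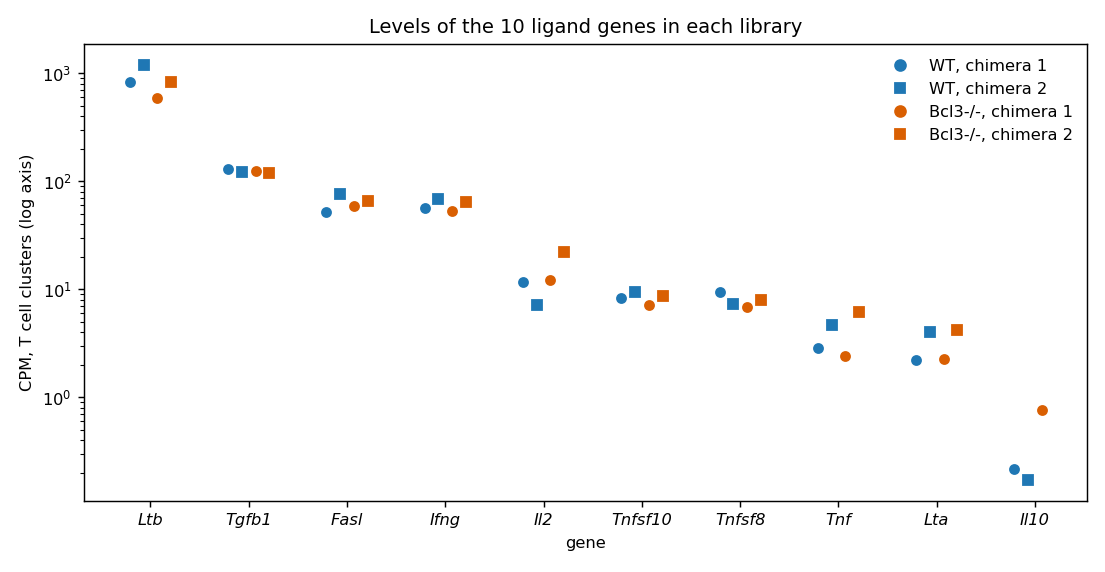
Level of each of the 10 genes over the T cell clusters (CPM, log axis) with 1 point per library, WT in blue and Bcl3-/- in orange, circles for chimera 1 and squares for chimera 2. Ltb sits between 593 and 1203 CPM, far above the rest, and Il10 has no point for KO2, where it was at 0 UMIs.

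Most of these UMIs lay in the T cell clusters, which also held most of the cells. A high share alone therefore does not set a gene apart. The T cell clusters held 97.5% of the Ifng UMIs, 97.5% of those of Fasl, 97.4% of those of Tnfsf8 and 94.5% of those of Ltb. Mean levels of Ifng were 60.9 CPM in T cell clusters, 7.12 in B-like and 16.8 in myeloid cells. In the same order Fasl had 63.5, 10.4 and 15.1 CPM and Tnfsf8 7.88, 2.82 and 1.71. Ltb had 867, 1256 and 289 CPM, and was thus highest in B-like cells. For Lta, Tgfb1, Tnf and Il10 other cells held more. B-like cells held 15.7% of the Lta UMIs, myeloid cells 11.3% of those of Tgfb1, and myeloid cells 11.5% of those of Tnf. The T cell clusters held 57.9% of the 38 Il10 UMIs. Lta, which encodes lymphotoxin α, had 30.4 ± 6.71 CPM (SD, n = 4) in B-like cells, against 3.19 in the T cell clusters. Tgfb1 reached 289 ± 34.3 CPM in myeloid cells and 195 ± 13.3 CPM in B-like cells. The myeloid cells were 2 clusters in each Bcl3-/- library and 1 in each WT library. In WT1 and WT2 the cluster led by S100a9 held under 1% of the cells and was left out.

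Ltb, Tnf and Lta lie side by side in the class III region of the major histocompatibility complex. In GRCm38 (GENCODE vM21 gene bounds) Ltb is at chr17:35194439-35196320 on the plus strand, Tnf at chr17:35199381-35202007 on the minus strand and Lta at chr17:35203165-35205351 on the minus strand. The gaps between them are 3060 and 1157 bp, and the 3 genes span 10913 bp. Ltb was nonetheless far above Tnf and Lta in every library. Ifng lies on chromosome 10, Fasl and Il10 on chromosome 1, Il2 and Tnfsf10 on chromosome 3, Tnfsf8 on chromosome 4 and Tgfb1 on chromosome 7. Il2 overlaps Adad1 on the other strand, which had 1 UMI in all libraries.

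Because Ltb was the most abundant gene and the one on which the comparison of genotypes turns, the stretch just before its gene start is shown, chr17:35194257-35194438 on the plus strand (GRCm38.p6, RefSeq promoter). Capitals mark a match to the κB motif GGGANNNNCC, read on the other strand, that starts at position -87 from the RefSeq start.
Ltb: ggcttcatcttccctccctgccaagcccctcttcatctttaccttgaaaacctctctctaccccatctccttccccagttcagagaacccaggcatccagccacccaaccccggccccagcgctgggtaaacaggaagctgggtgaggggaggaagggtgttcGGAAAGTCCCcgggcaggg
In the 250 bases before the start, this motif was present on either strand in 17.6% of 32851 RefSeq promoters. RefSeq promoters matched 9 of the 10 genes, and Tgfb1 was the other one with a match (GGGACCCCCC at -140). The interferon response motif AANNGAAA, searched in the same way, was present in 21.3% of promoters. Tnfsf10 had it at -53 (TTTCACTT) and at -30 (AAAAGAAA), Ifng at -175 (AAAGGAAA) and Tnfsf8 at -103 (AAAGGAAA). A match is a run of letters and not a measured site.

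The levels of several genes differed between T cell states by more than the spread over the 4 libraries. States are clusters of the same cells, so these differences are given as a description, with no test. With 4 libraries a sign-flip test could not give a p below 0.125.

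Ltb had its highest mean in naive and memory precursor clusters, with interferon-stimulated clusters close behind, and its lowest in terminal effector clusters. The naive and memory precursor clusters had 1262 CPM in WT1 and 1748 in WT2 against 1161 in KO1 and 1386 in KO2. Interferon-stimulated clusters had 1330, 1561, 943 and 1314 CPM in the same order, and unnamed clusters 843, 1306, 707 and 913 CPM. Within each library the first 2 of these states lay above the unnamed clusters, whereas the ranges over libraries overlapped. Cycling clusters had 606, 887, 388 and 605 CPM, and terminal effector clusters 625, 665, 247 and 373 CPM. Terminal effector clusters were below naive and memory precursor clusters in 4 of 4 libraries, with a mean log2 difference of -1.63 (SD 0.54, n = 4) or 3.10-fold, and these ranges did not overlap. B-like cells, which are known to make lymphotoxin, had 1256 ± 105 CPM (SD, n = 4), as much as the highest T cell states.

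Tnf and Lta, the neighbours of Ltb, also had their lowest means in terminal effector clusters. Lta had 12.1 CPM in WT1 and 14.7 in WT2 against 10.3 in KO1 and 21.9 in KO2 in naive and memory precursor clusters. Its means were 2.99 ± 1.34 CPM (SD, n = 4) in unnamed and 1.18 ± 0.751 CPM in terminal effector clusters. The naive and memory precursor clusters were 5.25-fold above the unnamed ones and higher in 4 of 4 libraries. Tnf, a cytokine released after antigen contact, had 8.18 ± 2.78 CPM in naive and memory precursor clusters and 3.91 ± 2.22 CPM in unnamed clusters. In terminal effector clusters, only 0, 2, 1 and 4 Tnf UMIs were counted in WT1, WT2, KO1 and KO2.

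Tnfsf8, whose product binds CD30, had the steepest pattern. In naive and memory precursor clusters it had 62.3 CPM in WT1 and 62.9 in WT2 against 63.6 in KO1 and 93.7 in KO2. In the other T cell states no library exceeded 11.5 CPM, and the means lay between 2.85 and 6.91 CPM. Against unnamed clusters the level was 11.7-fold higher (log2 difference 3.55, SD 0.30, 4 of 4 libraries). These clusters held 37.5% of all Tnfsf8 UMIs. With each cell thinned to 1000 UMIs, 4.62% of the cells had a Tnfsf8 UMI in WT1 and 6.95% in WT2 against 12.3% in KO1 and 6.47% in KO2. In B-like cells thinned in the same way, 0, 0, 0 and 1 cell had one.

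Ifng and Fasl, the effector pair, had the reverse pattern. Ifng, the main antiviral cytokine of these cells, had 21.8 CPM in WT1 and 31.5 in WT2 against 18.5 in KO1 and 21.9 in KO2 in naive and memory precursor clusters. The other 4 states had means of 57.4 to 73.4 CPM, and no library of theirs fell below 48.2 CPM. The naive and memory precursor clusters were 2.71-fold below the unnamed ones (log2 difference -1.44, SD 0.21). Terminal effector and unnamed clusters did not differ beyond their spread, with 62.8 ± 8.49 and 62.8 ± 9.11 CPM. Fasl, a ligand that triggers death of Fas-bearing cells, had 26.7 ± 13.5 CPM in naive and memory precursor and 40.1 ± 3.29 CPM in cycling clusters. It had 68.2 ± 13.3 CPM in unnamed, 72.3 ± 17.2 in terminal effector and 103 ± 20.6 CPM in interferon-stimulated clusters. The interferon-stimulated clusters were above the unnamed ones in 4 of 4 libraries (1.51-fold), although the ranges overlapped.

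Tnfsf10, a death ligand known to be induced by interferon, was highest in interferon-stimulated clusters, with 15.1 CPM in WT1 and 16.4 in WT2 against 16.0 in KO1 and 21.5 in KO2. Every other T cell state lay between 4.10 and 9.81 CPM in every library, so these ranges did not overlap. The difference from unnamed clusters was 2.19-fold (log2 1.13, SD 0.30, 4 of 4 libraries). Tgfb1 varied least. It had 151 ± 7.14 CPM (SD, n = 4) in cycling clusters, the highest T cell state, and 114 ± 2.50 CPM in unnamed clusters, the lowest.

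Il2, the growth factor of T cells, had no state in which it stood out, with means of 11.6 to 16.97 CPM over the 5 states. It was highest in KO2 in every T cell state and also in B-like cells, where it had 5.85 CPM in WT1 and 6.63 in WT2 against 8.45 in KO1 and 16.3 in KO2. Il10 could not be described by state. In interferon-stimulated clusters of KO1, 10 Il10 UMIs were counted, all in 1 of 369 cells, and B-like cells held 0 Il10 UMIs in every library. A cluster of each library led by Jchain, Slpi and Mzb1, with 216 cells in all, held 2 Il10 UMIs in WT1 and 3 in WT2 against 2 in KO1 and 4 in KO2, or 5.15, 7.63, 6.42 and 11.9 CPM.

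**Figure D2:**
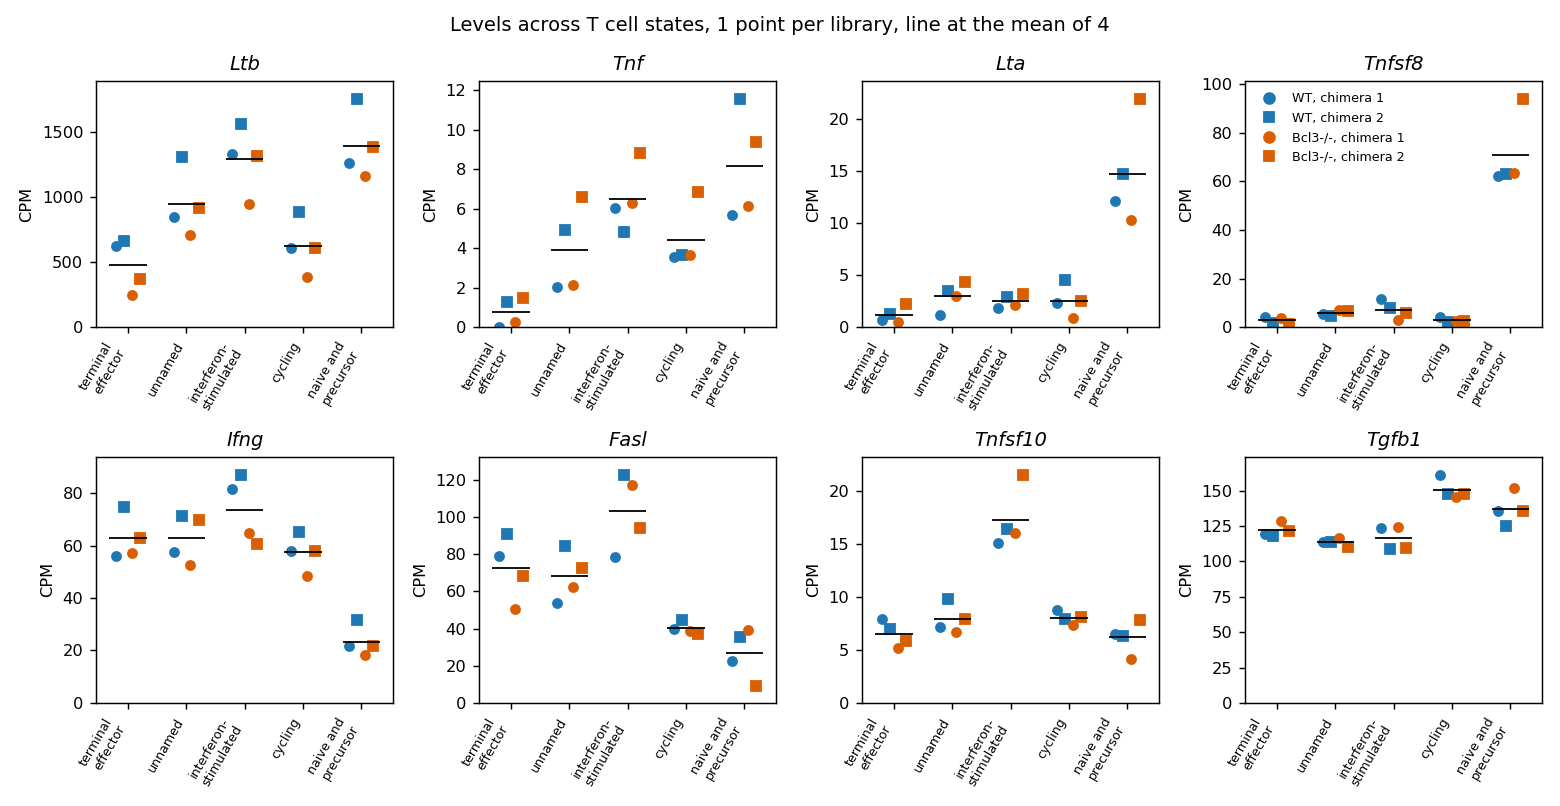
Level of 8 of the genes (CPM) in the 5 T cell states, 1 point per library (WT blue, Bcl3-/- orange, circles for chimera 1, squares for chimera 2), with a line at the mean of the 4 libraries. Tnfsf8 and Lta stand out in naive and memory precursor clusters, Tnfsf10 in interferon-stimulated clusters, and Ifng is lowest in naive and memory precursor clusters.

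Shares of cells with a UMI were compared with each cell thinned to 1000 UMIs, with exact Clopper-Pearson 95% intervals that cover counting error only. Free RNA in a droplet can give a UMI to a cell that does not express the gene. A UMI of the T cell gene Cd3e was found in some B-like cells. They were 22.9% in WT1 and 12.5% in WT2 against 42.5% in KO1 and 36.2% in KO2. Whether free RNA or doublets with T cells, which were not called, gave these UMIs was not tested. The background, which covers RNA of either source, was taken from B-like cells, which should lack Ifng, Fasl and Il2 of their own. The median depth of those deep enough to be thinned was 2297 UMIs in WT1 and 2162 in WT2 against 2901 in KO1 and 2637 in KO2, and that of the T cell clusters 3562, 2020, 3611.5 and 2931. In T cell clusters, 5.23% of the cells (95% interval 4.61 to 5.92) had an Ifng UMI in WT1 and 6.42% (5.88 to 7.0) in WT2 against 4.87% (4.29 to 5.51) in KO1 and 6.09% (5.50 to 6.72) in KO2. In B-like cells these were 0 of 105 cells in WT1 (a count of 0 allows up to 2.86%), 0 of 112 in WT2 (2.68%), 1 of 134 in KO1 and 0 of 127 in KO2 (2.36%), where the limit for a count of 0 was taken as 3 cells of the total. The exact upper limits were 3.45%, 3.24%, 4.09% and 2.86%, and Ifng in T cell clusters lay above them in every library. A Fasl UMI was found in 5.02%, 7.78%, 5.88% and 6.83% of cells, against 1.90%, 0.893%, 2.99% and 0.787% of B-like cells. The upper limits for B-like cells were 6.71%, 4.87%, 7.47% and 4.31%, so that the thinned share of Fasl lay above this background in WT2 and KO2, and within the interval in WT1 and KO1. Over all UMIs of these cells, not thinned, B-like cells held 3 Fasl UMIs in WT1 and 3 in WT2 against 7 in KO1 and 3 in KO2. Their exact Poisson 95% intervals, which cover counting error only, reached up to 25.6, 29.0, 30.5 and 23.8 CPM, and the 52.1, 76.6, 59.5 and 65.8 CPM of the T cell clusters lay above them in every library. For Il2 the shares were 0.955% in WT1 and 0.613% in WT2 against 1.19% in KO1 and 2.05% in KO2. B-like cells had 0.952%, 0.893%, 0.746% and 0.787%, each from 1 cell, with intervals that reached at least 4.09% and covered the T cell share of their library. Il2 in T cell clusters was therefore not detectable above this background in any library at this depth, and over all UMIs the intervals of B-like cells, up to 21.1, 23.9, 21.6 and 35.5 CPM, covered its level as well. Ltb is expressed by B cells, and 63.8% to 71.4% of B-like cells had a UMI.

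**Figure D3:**
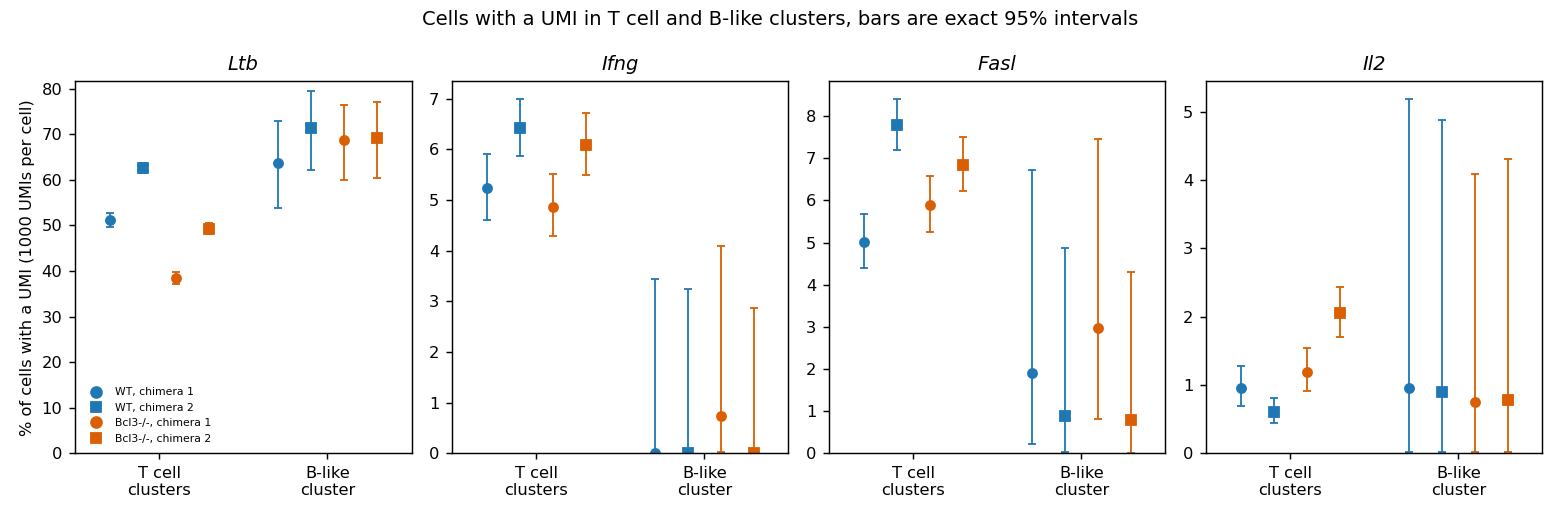
Share of cells with a UMI of Ltb, Ifng, Fasl and Il2 (percent, each cell thinned to 1000 UMIs) in T cell clusters and in the B-like cluster, 1 point per library, with exact 95% intervals as bars. Ifng lies above the B-like intervals in all 4 libraries and the thinned share of Fasl in WT2 and KO2, whereas the Il2 points of T cell clusters, 0.613% to 2.05%, are covered by the intervals of B-like cells.

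Which of the 10 genes were found in the same cells was described by odds ratios within 5 bands of depth, pooled for each library over the T cell clusters. Deeper cells show more of every gene, and the bands take up only part of that. Lta and Ltb, which form 1 receptor-binding complex, had odds ratios of 5.45 in WT1 and 1.52 in WT2 against 4.35 in KO1 and 3.38 in KO2. They thus occurred together more often than expected from the frequency of each over the pooled states. Both had their highest mean in naive and memory precursor clusters, and no interval is given for the ratios. For Tnf and Ltb the ratios were 1.64, 3.10, 3.38 and 2.93, and for Ltb and Tnfsf8 1.44, 1.81, 1.49 and 3.55. Ifng and Fasl had ratios of 1.36, 1.43, 1.23 and 1.12. Fasl and Tnfsf8 had ratios below 1 in all 4 libraries, 0.519, 0.187, 0.458 and 0.612. Naive and memory precursor clusters had the highest mean of Tnfsf8 and the lowest of Fasl, whereas cycling clusters were low in both. The part of the states in these ratios was not tested. Ifng and Il2 had ratios near 1, from 0.941 to 1.10.

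The genes whose levels ran most alike were sought by Pearson's r over the 20 sums of a library and a state, among 6671 genes (6672 for Tnfsf10). These sums share libraries and depth, and the values are a description. Ltb ran closest to Nfkb2 (r = 0.923), which encodes the NF-κB subunit p100/p52, then to Nfkbia (0.913) and Ssbp2 (0.903). Tnfsf10 ran closest to the interferon-induced genes Mx1 (0.929) and Zbp1 (0.912), and to Trafd1 (0.910). For Ifng they included Tspo (0.963) and Itm2b (0.929). For Tnfsf8 they were the ribosomal protein genes Rps18 (0.960) and Rpl3 (0.95) together with Pigp (0.95). Fasl was led by Tmem140 (0.886), Tgfb1 by Hnrnph1 (0.905) and Il2 by Fam49b (0.885).

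The question of the study's design is whether the loss of Bcl-3 changes virus-specific CD8+ T cells in a host they share with WT cells. UMIs were summed per library and tested with edgeR's quasi-likelihood test over all genes, with Benjamini-Hochberg adjustment. Over all cells, 0 of the 9 tested members passed an adjusted p of 0.05 (were called), while 0.363% of the 11566 genes tested did. DESeq2 called 0 members as well, and 1.76% of the genes. Ltb and Il2 had an unadjusted p below 0.05. Il10 was too low to be tested. The same test with the chimera as a block, which compares the genotypes within each host, called 9.65% of the genes and 1 member, Ltb. In sums over many cells, fewer cells of a type and less RNA per cell cannot be told apart.

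Ltb was lower in Bcl3-/- cells of both chimeras. Over all cells it had 807 CPM in WT1 and 1142 in WT2 against 587 in KO1 and 798 in KO2. The genotypes did not overlap, but KO2 lay just below WT1. The difference within the chimeras was -0.46 and -0.52 on the log2 scale. In edgeR's quasi-likelihood fit without the block the log2 fold change was -0.51 (SE 0.18, adjusted p = 0.256), and with 1 library left out it ran from -0.72 without WT1 to -0.28 without WT2. With the block it was -0.50 (SE 0.07, adjusted p = 0.000505). Over T cell clusters alone, 0.261% of 11097 genes and 0 members were called without the block (DESeq2 called 0 members and 1.51% of the genes, and Ltb and Il2 had an unadjusted p below 0.05 in edgeR). Ltb had 837, 1203, 593 and 834 CPM there, with a log2 fold change of -0.53 (SE 0.19, edgeR adjusted p = 0.307), and from -0.75 to -0.28 without the same libraries. With the block, which called 13.4% of these genes, it was -0.52 (SE 0.07, edgeR adjusted p = 6.95e-08). Over all cells the sum of 7 B cell markers was 1808 CPM in WT1 and 1957 in WT2 against 1954 in KO1 and 1908 in KO2, and that of 11 myeloid markers was 2872, 2738, 3839 and 4038 CPM. The T cell clusters, over which the difference is given above, hold neither B-like nor myeloid clusters. Terminal effector clusters, the state with the lowest mean of Ltb, held 9.33% of the cells in WT1 and 10.5% in WT2 against 21.6% in KO1 and 15.9% in KO2. At a clustering resolution of 1.2 these shares were 15.9% and 10.5% against 20.97% and 13.4%, and the genotypes overlapped. With 30 principal components they were 7.57% and 13.4% against 17.1% and 15.3%, with no overlap. The genotypes also did not overlap with the 10 genes kept among the variable genes or with the 4 libraries clustered together. How much these shares add to the difference over all T cells was not tested, and Ltb was lower within each state of both chimeras.

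**Figure D4:**
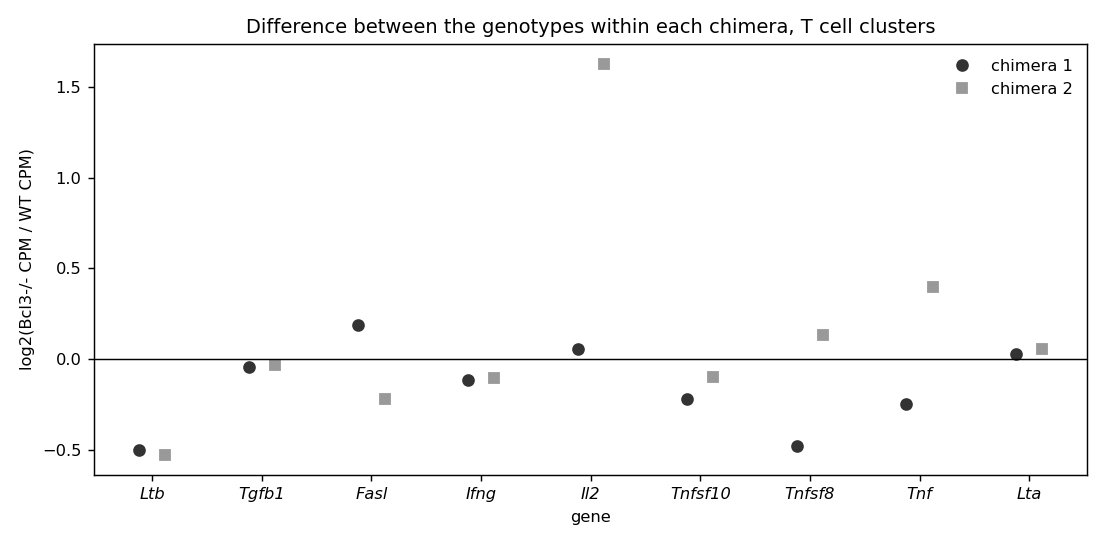
Log2 ratio of the Bcl3-/- to the WT level over T cell clusters for 9 of the genes, 1 point per chimera. Ltb is near -0.50 in both chimeras, Il2 is at 0.06 in chimera 1 and 1.63 in chimera 2, and the other points lie between -0.48 and 0.40.

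The share of cells with an Ltb UMI followed the same order. At 1000 UMIs per cell, 50.6% of all cells had one in WT1 and 61.6% in WT2 against 38.9% in KO1 and 48.8% in KO2. In terminal effector clusters these were 39.9%, 40.5%, 18.4% and 26.9%. B-like cells express Ltb and give no background for these shares. Myeloid clusters had 303 CPM of Ltb in WT1 and 303 in WT2 against 262 in KO1 and 289 in KO2. In KO1 and KO2 they included a cluster led by S100a9 that was left out in WT1 and WT2. These myeloid levels thus cover unlike mixes of cells. The part of free RNA in the shares was not tested. The shares over all cells did not overlap between the genotypes for Ltb and Il2, 2 of the 10 genes, and 36.9% of all 14930 genes with a UMI did not overlap. The 2-sided exact permutation test of 2 against 2 libraries gave p = 0.33 for both, the smallest p it can give.

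Il2 was called in T cell clusters only with the block. It had 11.6 CPM in WT1 and 7.14 in WT2 against 12.1 in KO1 and 22.1 in KO2, so that KO2 stood apart. The log2 fold change was 0.83 without the block (SE 0.31, edgeR adjusted p = 0.317) and 0.82 with it (SE 0.18, edgeR adjusted p = 0.000538). Without the block and with 1 library left out it ran from 0.39 without KO2 to 1.26 without WT1. The difference within chimera 1 was 0.06 and that within chimera 2 was 1.63, and the shares above were not detectable over background.

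The other members passed in neither fit. Over T cell clusters, the log2 fold changes in edgeR's fit were -0.12 (SE 0.11) for Ifng, -0.05 (SE 0.16) for Fasl, -0.05 (SE 0.10) for Tgfb1 and -0.17 (SE 0.16) for Tnfsf10. Tnfsf8 was at -0.20 (SE 0.20), Tnf at 0.17 (SE 0.43) and Lta at 0.03 (SE 0.38). Fasl, Tnfsf8 and Tnf went in opposite directions in the 2 chimeras. These intervals are wide for the sparse genes.

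Within states, 1 call was made without the block: Ltb in terminal effector clusters. Its levels of 625 CPM in WT1 and 665 in WT2 against 247 in KO1 and 373 in KO2 did not overlap. The log2 fold change was -1.10 (SE 0.16, edgeR adjusted p = 0.00876), with differences of -1.34 in chimera 1 and -0.83 in chimera 2. In this fit 0.777% of 8236 genes and 1 of the 6 tested members were called. DESeq2, which called 0.498% of the genes, gave an adjusted p of 2.23e-05. In the other states the log2 fold changes of Ltb were -0.62 in cycling, -0.42 in unnamed, -0.38 in interferon-stimulated and -0.22 in naive and memory precursor clusters, none of them called without the block with all 4 libraries and the filter on low counts. With 1 library left out they ran from -0.93 (KO2 left out) to -0.36 (WT2) in cycling, -0.69 (WT1) to -0.12 (WT2) in unnamed, -0.59 (KO2) to -0.20 (KO1) in interferon-stimulated and -0.41 (WT1) to -0.023 (WT2) in naive and memory precursor clusters. In cycling clusters Ltb did pass without the block when KO2 was left out (edgeR adjusted p = 0.00553, with 1.19% of genes called) or with no filter on low counts (adjusted p = 0.000379, with 1.88% called). In the fits with all 4 libraries the share of all genes called was 0.358% in cycling, 0.213% in unnamed, 0.196% in interferon-stimulated and 0.557% in naive and memory precursor clusters. With the block, Ltb also passed in cycling clusters (-0.62, edgeR adjusted p = 2.29e-05) and in unnamed clusters (-0.40, adjusted p = 0.0094), where 3.35% and 4.74% of genes were called. It did not pass in interferon-stimulated clusters (edgeR adjusted p = 0.0515, with 1.24% of genes called) or in naive and memory precursor clusters (adjusted p = 0.367, with 1.53% called). In interferon-stimulated clusters the blocked call depended on the clustering. It was made with the members kept among the variable genes (edgeR adjusted p = 0.0487) and with the libraries clustered together (adjusted p = 8.88e-09), and not with 30 principal components (adjusted p = 0.139).

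The size of the difference in terminal effector clusters depended on how the clusters were drawn. With the 4 libraries clustered together, an alternative chosen after seeing the data, Ltb in terminal effector clusters had 297 CPM in WT1 and 462 in WT2 against 224 in KO1 and 357 in KO2. The log2 fold change was then -0.41 (SE 0.20, edgeR adjusted p = 0.594, with 0.343% of genes called), and -0.41 with the block (adjusted p = 0.0316, with 1.74% of genes called). The genotypes overlapped. Of the cells in terminal effector clusters of their own library, 30.4% in WT1 and 28.6% in WT2 were also in terminal effector clusters of the joint clustering, against 69.1% in KO1 and 81.1% in KO2. In the joint clustering these clusters held 187 cells in WT1 and 285 in WT2 against 862 in KO1 and 937 in KO2. Thus the WT and Bcl3-/- cells compared under this name differed in how many of them kept it, and how far that sets the larger difference was not tested.

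**Figure D5:**
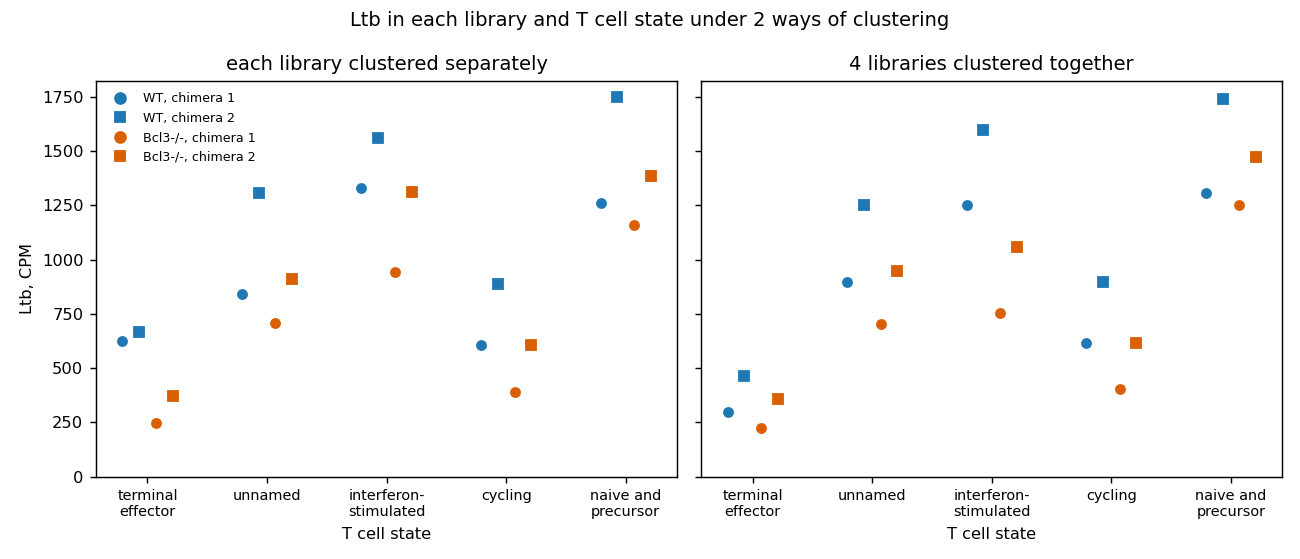
Ltb level (CPM) in the 5 T cell states with each library clustered separately (left) and with the 4 libraries clustered together (right), 1 point per library (WT blue, Bcl3-/- orange). The Bcl3-/- point is below the WT point of the same chimera in every state under both, and the gap in terminal effector clusters is smaller on the right, where WT1 falls from 625 to 297 CPM.

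Within each chimera Ltb was lower in Bcl3-/- cells in all 5 states under both ways of clustering. The size of this difference varied between states in a test of genotype by state, added after seeing the data and made on 20 sums of a library and a state with edgeR and the library as a block. The test called 0.582% of 9454 genes and 1 of the 9 members tested, Ltb (F = 14.3, adjusted p = 0.000305). Relative to unnamed clusters the difference between the genotypes was shifted by -0.71 on the log2 scale in terminal effector clusters, and by -0.98 to -0.43 with 1 library left out (WT2 and WT1). Without KO1 the adjusted p was 0.142, in a fit that called 0.118% of the genes. With the libraries clustered together the edgeR adjusted p was 0.00166, but the term for terminal effector clusters was then -0.02. That term was -0.58 at a resolution of 1.2, -0.69 with 30 principal components and -0.85 with the members kept among the variable genes. In the joint clustering the terms for interferon-stimulated and cycling clusters were -0.26 and -0.21. They were 0.003 and -0.23 with each library clustered on its own. For naive and memory precursor clusters the term was above 0 in both, 0.16 and 0.22.

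With all 4 libraries and the filter on low counts, Fasl and Il2 were called within states with the block and not without it. Without the block, Fasl passed in terminal effector clusters when WT1 or KO2 was left out. Il2 passed without it in terminal effector clusters when WT1 or KO1 was left out, in interferon-stimulated clusters without WT1, in unnamed clusters without KO1, and in terminal effector and unnamed clusters with no filter. In these fits 1.88% to 3.39% of all genes were called. Fasl in terminal effector clusters had 79.2 CPM in WT1 and 91.1 in WT2 against 50.5 in KO1 and 68.5 in KO2, with no overlap. Its log2 fold change was -0.56 with the block (SE 0.14, edgeR adjusted p = 0.0242), where 3.7% of genes were called, and -0.56 without it (adjusted p = 0.181). With the block it still passed with 30 principal components, but not with the members kept among the variable genes (edgeR adjusted p = 0.0786) or with the libraries clustered together (adjusted p = 0.49). Il2 in unnamed clusters had 0.91 with the block (SE 0.23, edgeR adjusted p = 0.0344), and without the block it ran from 0.55 without KO2 to 1.28 without WT1. With the block it did not pass in any of these 3 other clusterings, where the edgeR adjusted p was 0.125, 0.166 and 0.0641 in the same order. In terminal effector clusters Il2 with the block had an edgeR adjusted p of 0.0575, and passed with 30 principal components (adjusted p = 0.0019) and with the libraries clustered together (adjusted p = 0.0344) but not with the members kept (adjusted p = 0.192). Ifng, the cytokine most often measured in these cells, was called in no state with or without the block.

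Other genes of the same pathways were read from the same fit over all cells, with 4.84% of all genes lower and 4.81% higher in Bcl3-/- cells with the block. Of the receptors of the 10 ligands, 15 of 16 were tested and edgeR called 0 without the block (4 at an unadjusted p below 0.05, and 1 by DESeq2, Ifngr1). With it 3 were higher in Bcl3-/- cells, Tgfbr2, Il10rb and Tnfrsf1a, and 1 was lower. The lower one was Ifngr1, the ligand-binding chain of the IFN-γ receptor (log2 fold change -0.34, edgeR adjusted p = 0.00677). It had 580 CPM in WT1 and 595 in WT2 against 448 in KO1 and 495 in KO2. Over T cell clusters the block gave 2 that were higher, Il10rb and Tgfbr2, and 2 that were lower, Ifngr1 and Il2rg. There 6.69% of all genes were higher and 6.75% lower, and DESeq2 called 0 of the receptors. Tnfrsf1a thus passed over all cells, where the myeloid marker sum was higher in Bcl3-/- cells, and not over T cell clusters. The part of myeloid cells in that call was not tested. Of the targets of IFN-γ, 9 of 9 were tested and edgeR called 0 without the block (6 at an unadjusted p below 0.05). Both the block and DESeq2 gave 4 that were lower, and the median of the list was -0.23 against 0.01 over all genes. Igtp, an IFN-γ-induced GTPase, had 269, 320, 167 and 200.1 CPM in the same order (log2 fold change -0.70, edgeR adjusted p = 1.87e-05 with the block). Cxcl9 and Cxcl10, which encode chemokines induced by IFN-γ, were also among the 4, while Ifng itself did not pass. The sum of 10 markers of interferon-stimulated cells was 584 CPM in WT1 and 774 in WT2 against 460.0 in KO1 and 551 in KO2, and its part in the lower targets was not tested.

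Of the regulators of cytokine transcription 23 of 24 were tested. Jun, a subunit of AP-1, was the 1 gene of the list called without the block (DESeq2 called 3, Jun and Nfkb2 among them), with 32.2 CPM in WT1 and 40.3 in WT2 against 14.6 in KO1 and 14.8 in KO2 (log2 fold change -1.32, edgeR adjusted p = 0.0158). With the block 4 were lower (Jun, Nfkb2 and Relb among them) and 4 were higher (Eomes, Ikzf1, Nfatc1 and Tbx21). Nfkb2 had 37.9, 45.6, 25.6 and 31.3 CPM (log2 fold change -0.57, edgeR adjusted p = 0.00099 with the block and 0.112 without). It was the gene whose levels ran closest to Ltb over the sums of a library and a state, which include the difference between the genotypes. All 8 regulators of cytokine mRNA decay were tested, with 0 called by edgeR without the block (3 at an unadjusted p below 0.05, and 1 by DESeq2, Zfp36) and 3 higher with it. The median of the list was 0.26. The 3 were Zfp36, Zfp36l1 and Zfp36l2, which encode proteins that bind AU-rich elements and speed the decay of mRNAs. Zfp36l2 had 57.1 CPM in WT1 and 51.8 in WT2 against 83.4 in KO1 and 159 in KO2 (log2 fold change 1.07, edgeR adjusted p = 0.000747 with the block).

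Of the other ligands of the TNF superfamily 7 of 11 were tested, with 0 called by edgeR without the block or by DESeq2 (3 at an unadjusted p below 0.05 in edgeR), and Tnfsf9 and Tnfsf14 were higher with the block. Tnfsf9, the 4-1BB ligand, was low, with 3.02 CPM in WT1 and 2.24 in WT2 against 4.58 in KO1 and 7.01 in KO2. Of 20 other cytokines 10 were tested, with 0 called by edgeR without the block (2 at an unadjusted p below 0.05, and 1 by DESeq2, Il1b), and with the block Il1b was higher and Mif lower. Il1b had 12.4, 7.60, 28.1 and 25.1 CPM, and S100a8, the most abundant of the myeloid markers, had 747, 512, 1328 and 1455 CPM in the same libraries, with a sum over 11 myeloid markers of 2872, 2738, 3839 and 4038 CPM and none at 0. Over T cell clusters Il1b was called with the block and not by DESeq2, and the same markers summed there to 824 CPM in WT1 and 697 in WT2 against 984 in KO1 and 734 in KO2, higher in Bcl3-/- cells of both chimeras. The part of myeloid cells or their RNA in the Il1b result was not tested. Of 9 genes for release and activation of the ligands 7 were tested, and 0 were called by edgeR with or without the block or by DESeq2 (2 at an unadjusted p below 0.05 in each edgeR fit). Over T cell clusters the block gave 2 that were higher, Rab27a and Unc13d, with 6.69% of all genes higher there. Over all cells, where it was not called, Unc13d, needed for granule release, had 43.1 CPM in WT1 and 38.7 in WT2 against 45.8 in KO1 and 52.3 in KO2.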

How the data were processed

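The 4 libraries of sorted CD8+ T cells were prepared with the 10x Genomics 3′ kit (version 2). According to the submitters' processing notes the reads were handled with bcl2fastq 2.17 and Cell Ranger 2.2.0 on mm10. The counts the authors deposited are whole UMI counts without normalization, for every barcode of the kit. The kit keeps strand.

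The 10 genes and all lists were chosen with earlier results of these data known. Cells were filtered at 500 genes and 10% mitochondrial UMIs, as in the methods. Doublets were not called, and clusters below 1% of a library were left out of the states. Each library was clustered on its own (Seurat 5.3.0, R 4.3.3, 2000 variable genes without the 10 genes, 15 principal components, 20 neighbours, resolution 0.8). A cluster took a name when at least 3 markers of a list were detected in at least 10% of its cells and 2-fold higher. A marker of that list also had to be among the 10 leading genes of the cluster. Where several lists passed, the list with the most markers among the leading genes gave the name. UMIs were summed per library and scaled to CPM by the totals of the deposited counts in those cells. Sums were tested by the quasi-likelihood test of edgeR 4.0.16 after filterByExpr and TMM, without and with the chimera as a block, and with DESeq2 1.42.0. Same-numbered libraries came from the same animal, and their deviations correlated at 0.291 over 6863 genes. In simulated counts for all cells, the fit without the block recovered 72.5% of genes changed 2-fold and 94.0% of those changed 4-fold. With the block these were 80.0% and 91.0%, with 7 and 0 false calls, against 4 and 9 without it. Each setting was simulated once. The simulated libraries had no effect of the chimera, so these values do not show how either fit does on paired libraries. All 10 genes are named, and from the other lists up to 4 called genes each by size of change, or the 2 of highest level where none was called. A few genes that these rules would name are not reported here. The 2 chimeras are the only replicates, so p-values speak only of these libraries. edgeR also moderates the variance of each gene by that of all genes. With the block, 4 libraries leave little spread of a gene's own. The p-values with the block therefore rest largely on this shared variance and less on the agreement of the 2 chimeras. Motifs were searched in RefSeq promoters of GRCm38.p6.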

Additional observations from a re-analysis of the deposited data

Results flagged for a closer look

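The difference between the genotypes in Ltb was not the same size in every T cell state (edgeR genotype by state, adjusted p = 0.000305 over 9454 genes), which is why it was singled out. The log2 fold change ran from -1.10 in terminal effector clusters to -0.22 in naive and memory precursor clusters, with Bcl3-/- below WT in both chimeras in each state. With 1 library left out these 2 values ran from -1.38 to -0.85 and from -0.41 to -0.023, and that in unnamed clusters from -0.69 to -0.12. The adjusted p was 0.142 without KO1, and between 1.12e-08 and 0.0011 when any of the other 3 libraries was left out. With the 4 libraries clustered together the difference between states was still called (adjusted p = 0.00166), but the terminal effector term was -0.02.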

How the results depend on the processing

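Between all cells of the genotypes, 42 genes were called, against 203 with DESeq2, 80 with scaling by total UMIs, 66 with cells thinned to 1000 UMIs and 40 to 228 with 1 library left out. The chimera pairs the libraries, and the fit with the replicate block was the one that moved most, to 1116 genes. With the block 1 member was called over all cells (9.65% of all genes) and 2 over T cell clusters (13.4%). Without it 0 were called in both (0.363% and 0.261% of all genes). Summed over the 5 states there was 1 call of a member, with 0.196% to 0.777% of all genes called, by state. The block gave 5 calls of 3 members (Ltb, Fasl and Il2), with 1.24% to 4.74% of genes called. No filter on low counts gave 4 calls of Il2 and Ltb (0.671% to 2.5% of genes called). Clustering the 4 libraries together gave 0 without the block (0.248% to 0.686%). This alternative was chosen after seeing the data. So were 30 principal components, keeping the members among the variable genes and the test of genotype by state. With the block there were 5 such calls with 30 principal components, 4 with the members kept and 5 with the libraries clustered together, where 1.37% to 6.47% of the genes of those states were called. Beyond these the block changed no call of a member. The test of genotype by state called 0 to 1 members with 1 library left out, and 0 only without KO replicate 1, where 0.118% of all genes were called against 0.453% to 0.734% without any of the others. Ltb in terminal effector clusters had a log2 fold change of -1.38 to -0.85 with 1 library left out, and passed each time.

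Between the genotypes, over all cells and over T cell clusters, signs turned only for members never called in that fit. In the test of genotype by state, which called Ltb, its interferon-stimulated term was 0.003. That term was -0.17 without WT2, -0.06 without KO2 and -0.26 with the libraries clustered together, and above 0 in the other settings. With 1 library left out, the log2 fold change over all cells ran from -0.57 to 0.55 for Tnf, -0.21 to 0.46 for Lta, -0.29 to 0.20 for Fasl, -0.44 to 0.026 for Tnfsf8 and -0.13 to 0.0153 for Tgfb1, and over T cell clusters from -0.28 to 0.22 for Fasl. In thinned cells it was -0.17 for Tnf, -0.0301 for Lta and 0.00747 for Tnfsf8. The cause was not tested.

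Shares of cells with a UMI that did not overlap between genotypes were found for 2 members when thinned to 1000 UMIs, 4 without thinning and 3 at 1500 UMIs, against 36.9%, 24.2% and 37% of all genes. Depth limits Tnf, Lta and Il10 most, with 364, 293 and 38 UMIs in all.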
